A study of Homo sapiens with 6 samples.

Results

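The genes that build and sulfate glycosaminoglycans were followed in CaSki cells, an established human cervical squamous carcinoma line, with and without recombinant TGF-β1. Members were chosen by gene symbol: the xylosyltransferases, chondroitin synthases and polymerising factors, the sulfotransferases of the CHST, HS2ST, HS3ST, HS6ST and NDST families, the EXT and EXTL genes, the SULF sulfatases, the hyaluronan synthases and 8 single enzymes. This gave 55 of the 19775 genes measured, each read from its probe set with the highest mean. All but 1 encode proteins: EXTL3-AS1, an antisense RNA that the EXTL pattern also matched, is counted with them but is no enzyme. NDST2 and HAS1 were not analysed here. The study held 6 Affymetrix arrays of total RNA, 3 from untreated cells kept in medium without the cytokine and 3 from cells given TGF-β1 at 2 ng/mL, all in serum-containing RPMI1640 medium. The labels do not say whether the 3 arrays of a group came from separate cultures, and the sources used here do not give the length of treatment. P-values therefore measure the spread between these arrays, which may be technical. Both groups are 1 cell line, and mRNA is the only readout: neither enzyme activity nor glycosaminoglycan chains were measured, and in bulk RNA fewer cells with a transcript and less transcript per cell cannot be told apart.

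Glycosaminoglycans are long sugar chains carried on proteoglycan core proteins at the cell surface and in the matrix. Chondroitin, dermatan and heparan sulfate chains all start with xylose on a serine of the core protein, followed by a short linkage region, and then diverge into chains whose sulfation pattern decides which growth factors, proteases and matrix proteins they bind. Hyaluronan is made differently, without a core protein and without sulfate, by synthases at the plasma membrane. In squamous epithelia these chains fill the space between cells and hold growth factors at the basement membrane.

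Of the 55 genes 12 changed with TGF-β1, which is 21.8%, against 8.50% of all 19775 genes (limma, Benjamini-Hochberg adjusted p below 0.05). Of the 12, 9 rose, where 4.03% of all genes rose, and 3 fell, where 4.47% of all genes fell. XYLT1, which starts the chains, rose 7.35-fold and HS3ST1, a heparan sulfate 3-O-sulfotransferase, fell to a level 3.60-fold lower. NDST1, CHST11, SULF2, CHST3, HS3ST3A1, CSGALNACT2, B3GAT3 and DSE rose by smaller amounts, between 1.24-fold and 1.88-fold, and CHST7 and HAS3 were 1.37-fold and 1.72-fold lower. XYLT1 had the 4th largest rise and HS3ST1 the 4th largest fall among all genes, each read from its brightest probe set. Averaged over all their probe sets, XYLT1 differed by 2.01 and HS3ST1 by -0.84 on the log2 scale, so the size of both changes depends on the probe set. The median difference over the 55 genes was 0.07 on the log2 scale, against -0.0027 over all genes, and without XYLT1 and HS3ST1 it was 0.07 as well. Values of the groups did not overlap for 22 of the 55 genes (40%), 15 of them higher and 7 lower with treatment, against 29.2% of all genes. Among all 19775 genes 2556 were higher and 3216 lower without overlap, so the share of the 55 was larger on the higher side only. Without XYLT1 and HS3ST1 the share called was 18.9%, 10 of 53 genes. The members were chosen with earlier results of these data known, so the shares are descriptive only. No test of the list as a whole was made.

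Signal level bears on how many genes can be called. Of the 55 genes 30 lay above 5.31, the median level of all genes (log2, mean of the 6 arrays). Of these 30, 10 were called (33.3%), against 14.4% of all genes above that level. The other 2 calls, HS3ST3A1 and HAS3, lay below it. The count of 12 fell to 6 without untreated array 1, to 6 without untreated array 2 and to 6 without both arrays numbered 1, where 4.44%, 3.87% and 3.18% of all genes were called. XYLT1, HS3ST1, NDST1, CHST11 and SULF2 passed without any single array.

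**Figure D1:**
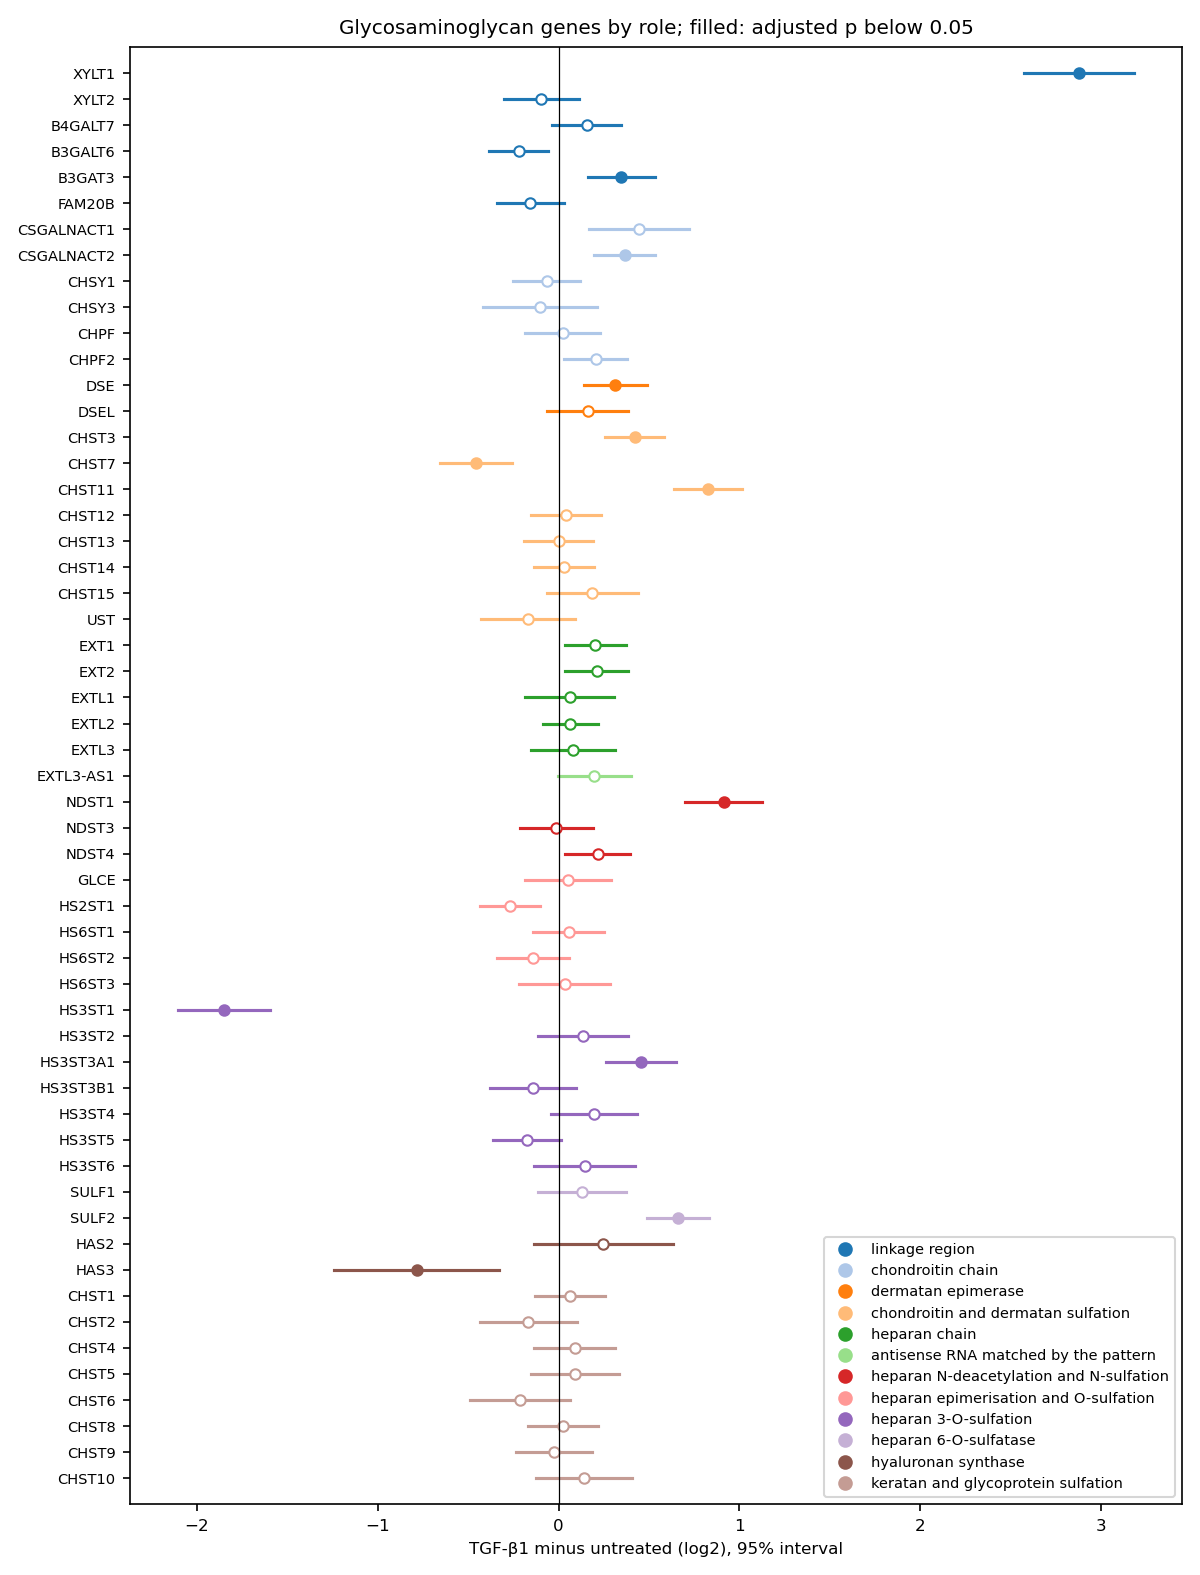
Difference between TGF-β1-treated and untreated cells (log2) for the 55 genes, ordered and coloured by role, each with its 95% interval from limma; filled points passed at an adjusted p below 0.05. XYLT1 at 2.88 and HS3ST1 at -1.85 stand far from the other genes, most of which lie close to 0.

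Facts of the whole set of arrays were as follows. Correlations over all probe sets were 0.994 to 0.996 within a group and 0.992 to 0.993 between the groups. The ratio of 3' to 5' control signals (GAPDH and ACTB), which reflects RNA integrity, was 1.19 on untreated array 1 and 1.15 on treated array 1 (log2), against 0.690 to 0.863 on the other 4. The feedback inhibitors of TGF-β signalling SMAD7 and PMEPA1, taken as a check of the treatment, rose 3.17-fold and 3.94-fold (limma adjusted p = 7.9e-05 and 9.8e-06). Of 9 squamous carcinoma markers the 6 measured here, KRT5, KRT14, CDH1, EPCAM, DSP and CDKN2A, all lay above the median level of genes. KRT14 was 1.71-fold higher and EPCAM 1.62-fold lower with treatment (limma adjusted p = 0.0027 and 9.5e-04), and the summed level of the list was 13.15 to 13.25 in untreated and 13.15 to 13.30 in treated arrays. Of 8 fibroblast markers 1 lay above it, COL1A1, and the summed level of the list was 8.24 to 8.50 in untreated and 9.52 to 9.69 in treated arrays (log2 of the sum), with COL1A1 the only member that changed, from 7.80 ± 0.16 to 9.37 ± 0.11 (SD, n = 3). The other 7, DCN, LUM, COL1A2, PDGFRA, PDGFRB, THY1 and TCF21, had mean levels from 2.49 for LUM to 4.84 for DCN and did not pass. The summed levels of 4 endothelial markers were 6.83 to 6.88 in untreated and 6.77 to 6.99 in treated arrays, with 1 of them, CDH5, lower by call (-0.41, limma adjusted p = 0.0299). Of 6 immune markers listed 5 were measured, with summed levels of 6.59 to 6.69 in untreated and 6.70 to 6.97 in treated arrays, narrowly without overlap. Of the 5, 0 passed by limma, with an unadjusted p below 0.05 for 2, as for 4584 of all 19775 genes. PECAM1, at 5.67, was the only endothelial marker above the median level of genes, and CSF1R, at 5.60, the only immune one. The part of these marker lists in the results on sugar-chain genes was not tested.

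The stretch around the gene start is shown for 4 genes on which the results turn: HS3ST1, with the largest fall of the 55, and XYLT1, NDST1 and CHST11, with the 3 largest rises. Sequences are from RefSeq (GRCh38.p14), 250 bases before to 50 bases after the gene start, at chr16:17470911-17471210 on the minus strand for XYLT1, chr4:11428845-11429144 on the minus strand for HS3ST1, chr5:150497529-150497828 on the plus strand for NDST1, chr12:104456698-104456997 on the plus strand for CHST11. They are written 5′ to 3′ on the gene's strand. Capitals mark matches on either strand to CAGAC, a short site bound by SMAD proteins, and to TGANTCA. The latter, in which N is any base, is a loose pattern for the site of AP-1 factors.
XYLT1: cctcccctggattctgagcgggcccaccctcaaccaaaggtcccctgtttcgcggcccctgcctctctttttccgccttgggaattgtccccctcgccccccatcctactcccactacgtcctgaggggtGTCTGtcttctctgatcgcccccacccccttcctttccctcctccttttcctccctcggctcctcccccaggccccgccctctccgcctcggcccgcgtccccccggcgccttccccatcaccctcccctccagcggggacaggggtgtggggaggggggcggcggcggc
HS3ST1: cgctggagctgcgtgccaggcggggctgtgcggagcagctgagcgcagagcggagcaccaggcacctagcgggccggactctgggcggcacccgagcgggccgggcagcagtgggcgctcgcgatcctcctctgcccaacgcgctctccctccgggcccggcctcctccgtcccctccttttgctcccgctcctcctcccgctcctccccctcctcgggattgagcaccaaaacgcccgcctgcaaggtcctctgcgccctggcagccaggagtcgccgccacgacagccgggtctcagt
NDST1: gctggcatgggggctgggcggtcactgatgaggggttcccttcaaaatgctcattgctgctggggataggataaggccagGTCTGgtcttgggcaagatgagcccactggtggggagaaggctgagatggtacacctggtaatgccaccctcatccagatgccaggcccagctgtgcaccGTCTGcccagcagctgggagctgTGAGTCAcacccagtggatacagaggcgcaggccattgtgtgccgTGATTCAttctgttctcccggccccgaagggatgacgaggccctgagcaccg
CHST11: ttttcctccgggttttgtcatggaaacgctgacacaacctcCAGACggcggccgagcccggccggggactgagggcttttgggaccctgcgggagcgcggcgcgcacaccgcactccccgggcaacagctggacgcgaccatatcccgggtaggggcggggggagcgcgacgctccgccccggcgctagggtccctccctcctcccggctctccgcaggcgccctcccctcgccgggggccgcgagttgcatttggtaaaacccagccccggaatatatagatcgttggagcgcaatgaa

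In these windows XYLT1 and CHST11 hold 1 CAGAC match each, NDST1 holds 2 CAGAC and 2 TGANTCA matches, and HS3ST1 holds neither. CAGAC is short and common: it occurs in 45.3% of all 35116 windows of this length in the table and in 39.3% of the 61 windows found for 47 of the 55 genes. TGANTCA occurs in 7.71% of all windows and in 8.20% of those of these genes. GTCTAGAC, the SMAD palindrome, is in 0.202% of all windows and in 0 of the 61. The GC box GGGCGG is in 45.0% of all windows and 77.0% of the 61, and the E-box CACGTG in 7.26% and 9.84%. Both strands were searched, and none of these motifs contains another. GC content of the windows was 70.0% for XYLT1, 73.0% for HS3ST1, 60.7% for NDST1 and 68.3% for CHST11. A match is a stretch of letters and not evidence of binding, and no factor's binding was measured here.

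The linkage region is built by XYLT1 or XYLT2, which add xylose, then B4GALT7 and B3GALT6, which add galactose, and B3GAT3, which adds glucuronic acid, while FAM20B phosphorylates the xylose. Of these 6 genes 2 rose, XYLT1 and B3GAT3, and 4 did not pass. XYLT1 read 3.94, 3.77 and 4.13 on the untreated arrays 1, 2 and 3 and 6.59, 7.04 and 6.84 on the treated arrays (log2). The lowest treated value lay over 2 units above the highest untreated value, and the difference was 2.88 ± 0.13 (SE), with an adjusted p of 1.9e-05 by limma. All 3 untreated values lay below 5.31, the median level of genes, and all treated values above it.

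The other xylosyltransferase gene, XYLT2, read 6.36, 6.31 and 6.36 on untreated and 6.07, 6.36 and 6.32 on treated arrays. These values overlapped, and the difference of -0.09 had a 95% interval from -0.30 to 0.11 (limma adjusted p = 0.59), which lies wholly below the interval of XYLT1, from 2.57 to 3.18. Differences between related genes, here and below, were not tested. B3GAT3 read 5.86, 5.79 and 6.01 on untreated and 6.27, 6.19 and 6.23 on treated arrays, a rise of 0.35 ± 0.08 (SE, limma adjusted p = 0.0371). Its groups did not overlap. Of the 6 fits without a single array, only that without untreated array 3 kept the call, which was lost without untreated arrays 1 and 2 and treated arrays 1, 2 and 3 in turn (adjusted p = 0.111, 0.130, 0.0820, 0.0860 and 0.0958). A replicate block (0.0572) and leaving out suffixed probe sets (0.0514) ended it too. B3GALT6 read 8.22 to 8.28 on untreated and 7.95 to 8.07 on treated arrays, without overlap, and its difference of -0.22 did not pass (adjusted p = 0.102), though it did when genes above the median level alone were tested (0.0270) and with a trended robust variance (0.0309). FAM20B, at 7.28 to 7.30 and 6.99 to 7.21 without overlap, and B4GALT7, at 6.73 to 6.80 and 6.78 to 7.01 with overlap, differed by -0.16 and 0.16 without passing. XYLT1 alone of the 6 linkage genes differed by over 0.4 units.

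**Figure D2:**
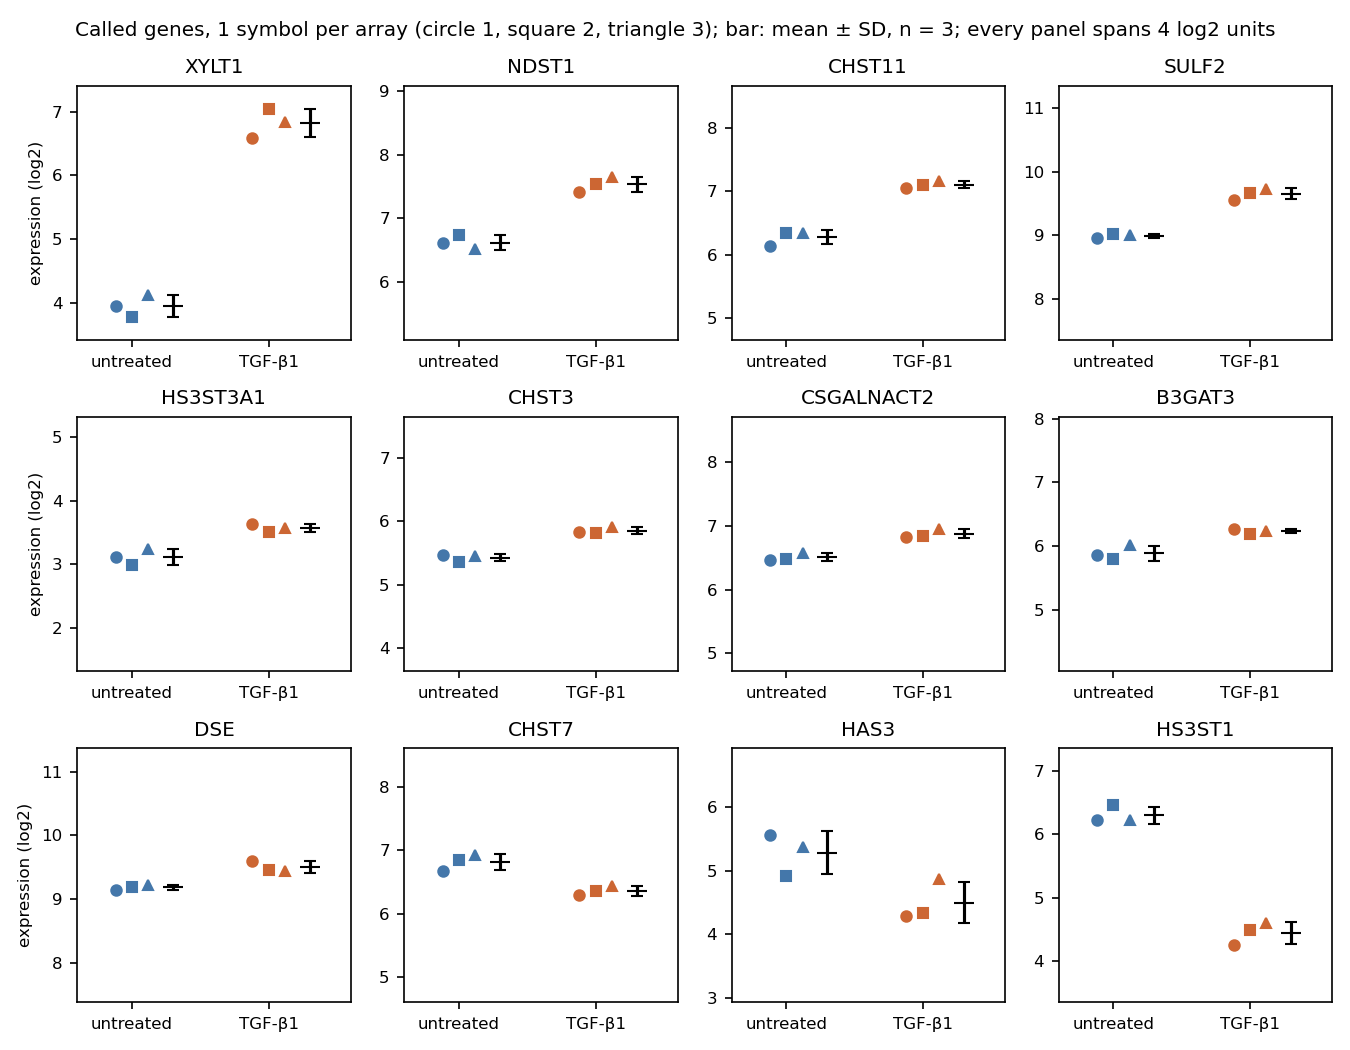
Expression (log2) of the 12 genes that passed, with 1 symbol per array, circles, squares and triangles for arrays 1, 2 and 3, and bars for mean ± SD (n = 3); every panel spans 4 log2 units. XYLT1 and HS3ST1 show the widest gaps between groups, while for HAS3 the lowest untreated array at 4.92 nearly meets the highest treated array at 4.87.

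Chondroitin chains are begun by CSGALNACT1 and CSGALNACT2, which add the first N-acetylgalactosamine, and extended by CHSY1, CHSY3, CHPF and CHPF2. Of these 6 genes CSGALNACT2 rose and the other 5 did not pass. CSGALNACT2 read 6.47, 6.49 and 6.58 on untreated and 6.84, 6.84 and 6.96 on treated arrays. The groups did not overlap and the difference was 0.37 ± 0.07 (SE, limma adjusted p = 0.0223). It was no longer called when untreated arrays 1, 2 and 3 and treated arrays 2 and 3 were dropped in turn (adjusted p = 0.0801, 0.0844, 0.0536, 0.0576 and 0.0724), and when probe sets with a suffix for shared sequence were left out the remaining probe set differed by -0.01 (adjusted p = 0.94). CSGALNACT1 read 2.64, 2.85 and 2.85 on untreated and 3.29, 2.98 and 3.40 on treated arrays, a difference of 0.44 that did not pass (adjusted p = 0.0608, but 0.0282 without treated array 2 and 0.0421 with a trended robust variance) at a level below the median of genes. CHPF2 read 7.20 to 7.39 on untreated and 7.47 to 7.54 on treated arrays without overlap (0.21, adjusted p = 0.147, but 0.0487 among genes above the median level). CHSY1 ranged from 6.51 to 6.65 on untreated and 6.41 to 6.61 on treated arrays and CHPF from 6.13 to 6.23 and 6.06 to 6.35. These overlapped, and with the dim CHSY3 they differed by -0.07, 0.02 and -0.10.

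Epimerases turn glucuronic into iduronic acid and so make dermatan out of chondroitin. DSE, the first of this pair, read 9.14, 9.20 and 9.21 on untreated and 9.60, 9.45 and 9.44 on treated arrays. The groups did not overlap, with a rise of 0.31 ± 0.08 (SE, limma adjusted p = 0.0403). Dropping any 1 of the 6 arrays ended this call, with adjusted p between 0.0723 and 0.121, and with a replicate block (0.0775). DSEL, its paralog, lay below the median of genes and did not pass (0.16, 95% interval -0.06 to 0.39).

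Sulfation of chondroitin and dermatan is divided among 4-O-sulfotransferases (CHST11, CHST12, CHST13 and, for dermatan, CHST14), 6-O-sulfotransferases (CHST3 and CHST7), CHST15, which adds a further sulfate to 4-sulfated residues, and UST, which sulfates the uronic acid. Of the 8 genes 2 rose, CHST11 and CHST3, and 1 fell, CHST7. CHST11 read 6.15, 6.35 and 6.34 on untreated and 7.06, 7.09 and 7.16 on treated arrays. All treated values lay above all untreated ones, with a 1.77-fold rise (0.83 ± 0.08, SE, limma adjusted p = 9.0e-04). The other 4-O-sulfotransferase genes did not pass. CHST12, at 6.15 to 6.32 and 6.15 to 6.34, CHST13, at 4.68 to 4.90 and 4.73 to 4.86, and CHST14, at 7.85 to 8.0 and 7.96 to 7.97, overlapped between groups, and their 95% intervals lay between -0.19 and 0.23.

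The 6-O-sulfotransferase genes moved in opposite directions. CHST3 read 5.47, 5.37 and 5.45 on untreated and 5.83, 5.81 and 5.91 on treated arrays, a rise of 0.42 ± 0.07 (SE, limma adjusted p = 0.0106). CHST7 read 6.68, 6.85 and 6.92 on untreated and 6.29, 6.35 and 6.44 on treated arrays, and fell by 0.46 on the log2 scale (SE 0.09, limma adjusted p = 0.0174). Neither gene's groups overlapped, and the 95% intervals, 0.26 to 0.59 and -0.66 to -0.26, lie on opposite sides of 0. CHST3 was no longer called when untreated arrays 1 and 2 were dropped in turn (adjusted p = 0.195 and 0.0522). CHST7 was not when untreated arrays 2 and 3 and treated array 2 were (0.0705, 0.0699 and 0.0591). The CHST3 result without untreated array 1 (0.33) also reflects a change of probe set. Its first and second probe sets were almost equally bright, at 5.640 and 5.636, and that fit used the second. Over all 6 arrays, in a fit of all probe sets, the first differed by 0.42 and passed (limma adjusted p = 0.0269). The second differed by 0.44 and did not pass (0.126). CHST15, at 8.41 to 8.67 and 8.59 to 8.93, and UST, at 3.98 to 4.42 and 3.97 to 4.05, overlapped between groups and differed by 0.19 and -0.17 without passing.

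Heparan sulfate chains are begun by EXTL3 and polymerised by the complex of EXT1 and EXT2, with EXTL1 and EXTL2 as related transferases. None of these 5 genes passed (5 differences above 0, at an unadjusted p below 0.05 for 2 of them, limma). Of all 19775 genes, 9773 differed above 0 and 4584 had an unadjusted p below 0.05. EXT1 read 8.89, 8.86 and 8.97 on untreated and 9.06, 9.09 and 9.19 on treated arrays. EXT2 read 9.79, 9.92 and 9.93 on untreated and 10.02, 10.11 and 10.14 on treated arrays. Neither overlapped between groups, and they differed by 0.20 and 0.21 (adjusted p = 0.14 for both). Both passed when only genes above the median level were tested (adjusted p = 0.0453 and 0.0462) and with a trended robust variance (0.0369 and 0.0260). EXTL2, at 6.91 to 7.0 and 7.01 to 7.04, EXTL3, at 5.82 to 5.85 and 5.71 to 6.10, and the dim EXTL1 differed by 0.07, 0.08 and 0.06. The antisense RNA EXTL3-AS1 differed by 0.20 without passing.

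N-deacetylase and N-sulfotransferase enzymes carry out the first modification of the heparan chain, on which later sulfation depends. NDST2 of this family was not analysed here. NDST1 read 6.61, 6.74 and 6.51 on untreated and 7.41, 7.54 and 7.65 on treated arrays. The groups stood clearly apart, and NDST1 rose 1.88-fold (0.91 ± 0.09, SE, limma adjusted p = 9.8e-04). NDST3 and NDST4, at mean levels of 2.51 and 3.10, lay below the median of genes, and their differences of -0.01 and 0.22 did not pass.

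After N-sulfation, GLCE epimerises the uronic acid, HS2ST1 sulfates it, and the HS6ST enzymes sulfate the glucosamine. Of these 5 genes 0 passed by limma, and 1, HS2ST1, had an unadjusted p below 0.05, as did 4584 of all 19775 genes. HS2ST1 read 7.55, 7.49 and 7.56 on untreated and 7.29, 7.32 and 7.18 on treated arrays. The groups did not overlap, but the difference of -0.27 missed the threshold (adjusted p = 0.059). It passed when genes at or below the median level were left out (0.0135) and with a trended robust variance (0.0197). Without suffixed probe sets HS2ST1 was read from another probe set and passed (-0.46, adjusted p = 0.0490). That probe set was dim, at a mean level of 2.94, below the median of genes. GLCE, at 5.87 to 6.03 and 5.87 to 6.21, and HS6ST1, at 6.44 to 6.69 and 6.55 to 6.67, overlapped between groups and differed by 0.05 and 0.06. HS6ST2 and HS6ST3 were below the median of genes and differed by -0.14 and 0.03.

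3-O-sulfation is the last and rarest modification, and HS3ST1 is the enzyme known for making the antithrombin-binding site of heparan sulfate. HS3ST1 read 6.22, 6.46 and 6.22 on untreated and 4.25, 4.49 and 4.60 on treated arrays. The highest treated value lay over 1.5 units below the lowest untreated one, and HS3ST1 fell by 1.85 on the log2 scale (SE 0.11, limma adjusted p = 6.9e-05). HS3ST3A1 read 3.11, 3.0 and 3.24 on untreated and 3.64, 3.51 and 3.57 on treated arrays, a rise of 0.46 ± 0.08 (SE, limma adjusted p = 0.0162) at a level below the median of genes. Dropping untreated array 1, untreated array 2 and treated array 3 in turn ended that call (adjusted p = 0.0574, 0.0634 and 0.0519). HS3ST3B1, the close relative of HS3ST3A1, read 5.33 to 5.66 on untreated and 5.25 to 5.47 on treated arrays, overlapping, and differed by -0.14. HS3ST2, HS3ST4, HS3ST5 and HS3ST6 were below the median of genes and did not pass, with differences of 0.13, 0.20, -0.17 and 0.15. The upper end of the interval for HS3ST1, -1.59, lies below the lower ends for the other 6 genes of this family, of which the lowest was -0.38.

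The sulfatases SULF1 and SULF2 act outside the cell and remove 6-O-sulfate from finished heparan chains. SULF2 read 8.96, 9.02 and 9.01 on untreated and 9.56, 9.67 and 9.73 on treated arrays. Untreated arrays lay within 0.1 units of each other, and SULF2 rose 1.58-fold (0.66 ± 0.07, SE, limma adjusted p = 0.00156). SULF1, at 3.10 to 3.17 and 3.04 to 3.44, was below the median of genes, and its difference of 0.13 had a 95% interval from -0.12 to 0.37.

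Hyaluronan synthase HAS3 read 5.57, 4.92 and 5.37 on untreated and 4.30, 4.34 and 4.87 on treated arrays. The groups did not overlap but came close, and the spread within them, with SDs of 0.33 and 0.32, was wide. HAS3 fell by 0.78 on the log2 scale (SE 0.20, limma adjusted p = 0.0488), just past the threshold. HAS3 was not called when untreated arrays 1 and 3 and treated arrays 1 and 2 were dropped in turn (adjusted p = 0.139, 0.154, 0.131 and 0.138), after repeated quantile normalisation (0.0529), after median centring (0.0501), with a replicate block (0.0520) and with the 3' to 5' signal as a covariate (0.0762). The arrays numbered 1, where the 3' to 5' ratio was highest, had the highest untreated and the lowest treated value, and without both the difference was -0.54 (adjusted p = 0.26). HAS2, at 3.83 to 4.10 and 3.84 to 4.53, overlapped between groups and differed by 0.25 with a 95% interval from -0.14 to 0.63.

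Keratan sulfate and glycoprotein sulfotransferases, CHST1, CHST2, CHST4, CHST5, CHST6, CHST8, CHST9 and CHST10, showed no call by limma. Of the 8, 0 passed and 0 had an unadjusted p below 0.05, against 4584 of all 19775 genes with such a p. CHST5 and CHST10 of the 8 lay above the median level of genes. CHST5 read 5.29 to 5.64 on untreated and 5.45 to 5.65 on treated arrays, and CHST10, which makes the sulfated HNK-1 epitope, 5.38 to 5.72 and 5.53 to 5.81. The groups of all 8 genes overlapped, and their differences ran from -0.21 for CHST6 to 0.14 for CHST10.

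Different probe sets of 1 gene can read different parts of its transcripts, and 36 of the 55 genes had more than 1. In a fit over all 54613 probe sets without control names, 3.24% were called, and of the 110 probe sets of the 55 genes 11 were called, 9 higher and 2 lower. Besides representatives, 3 were called: the second probe sets of XYLT1 and SULF2 and the dimmest of CHST11. SULF2 gave the most even picture, at 0.66 and 0.69. The second XYLT1 probe set read 2.86, 3.70 and 3.84 on untreated and 4.56, 4.65 and 4.60 on treated arrays, also without overlap, and rose by 1.14 (limma adjusted p = 0.0307), against 2.88 for the first, whose suffix marks sequence shared with other transcripts. CHST11 rose by 0.83 on its first and 0.50 on its dimmest probe set, while the other differed by 0.31 without passing.

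Dimmer probe sets of HS3ST1 differed less than the first. They read 4.18 to 4.82 and 4.39 to 4.81 on untreated and 4.19 to 4.57 and 3.95 to 4.24 on treated arrays, with differences of -0.20 and -0.47 that did not pass, the first with and the second without overlap of the groups. All 3 HS3ST1 probe sets carry a shared-sequence suffix, so that no value is left when such probe sets are excluded. NDST1 differed by 0.50 and 0.33 on its other probe sets, both in the direction of the first. B3GAT3 and HAS3 had a second probe set with a difference of the opposite sign, -0.02 and 0.27, at mean levels of 5.95 and 3.14. When all probe sets of a gene were averaged, the calls of B3GAT3, CSGALNACT2, DSE and HAS3 were lost (adjusted p = 0.218, 0.182, 0.366 and 0.186), and the other 8 called genes still passed. Of these 8, CHST7 and HS3ST3A1 have only 1 probe set each, so averaging could not change their differences. For DSE averaging joined the first probe set, at a mean level of 9.34, with dim ones at 3.41, 2.17 and 1.91. The loss of its call there therefore says little about the first probe set.

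**Figure D3:**
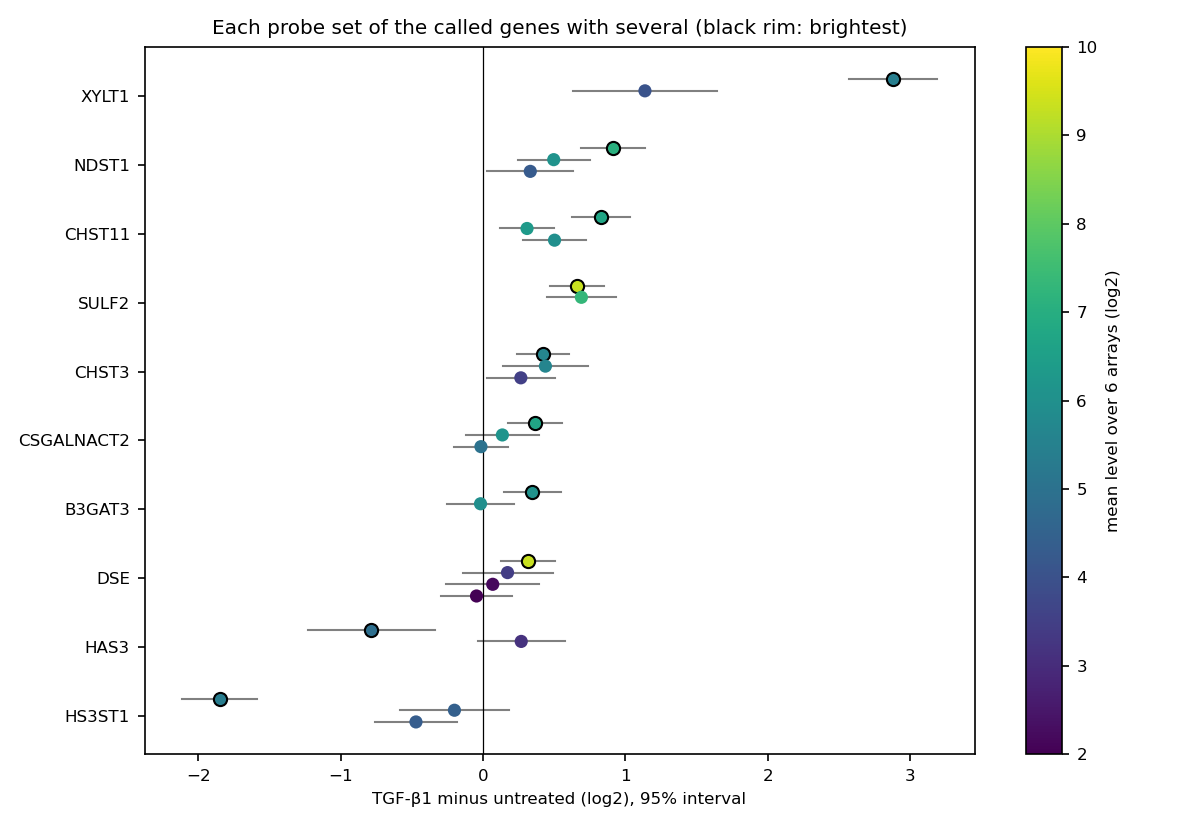
Difference (log2) with 95% interval of each probe set of the 10 called genes that have more than 1, coloured by mean level over the 6 arrays; a black rim marks the brightest, which represents the gene. The SULF2 probe sets coincide at 0.66 and 0.69, while those of XYLT1 and HS3ST1 differ widely in size and those of HAS3 lie on opposite sides of 0.

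Precursors for these chains are sugar nucleotides and the sulfate donor PAPS, made in the cytosol and carried into the Golgi. Of 18 genes listed for this supply, 13 were measured here, of which SLC26A2 rose, GNPNAT1 fell and 11 did not pass, with a median difference of 0.02 against -0.0027 for all genes. The share called was 15.4% against 8.50% of all genes, but among genes above the median level it was 16.7% of 12 against 14.4%, close to the background. SLC26A2, the sulfate transporter of the plasma membrane, read 8.57, 8.36 and 8.38 on untreated and 9.20, 9.05 and 9.05 on treated arrays. These groups stood well apart, with a 1.58-fold rise (0.66 ± 0.09, SE, limma adjusted p = 0.00344) that passed without any single array. GNPNAT1, an enzyme of UDP-N-acetylglucosamine synthesis, read 9.23, 9.13 and 9.23 on untreated and 8.86, 8.87 and 8.90 on treated arrays, and fell by 0.32 on the log2 scale (SE 0.07, limma adjusted p = 0.0286). GNPNAT1 was not called when any 1 of the 6 arrays was dropped (adjusted p between 0.0578 and 0.103). UXS1, which makes UDP-xylose, the donor used by XYLT1, differed by -0.30 without passing (adjusted p = 0.0548). The PAPS synthase genes PAPSS1 and PAPSS2 differed by -0.13 and 0.09, and UGDH, which makes UDP-glucuronic acid, by 0.06, all without passing.

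Degradation genes were listed as 22, of which 18 were measured here. CEMIP and CEMIP2 rose, HPSE fell and 15 did not pass, with a median difference of 0.10. The share called was 16.7% against 8.50% of all genes, and 25% of the 12 above the median level against 14.4% of all genes above it. CEMIP, which takes part in hyaluronan breakdown, read 7.26, 7.34 and 7.39 on untreated and 8.13, 8.05 and 7.96 on treated arrays, and rose 1.65-fold (0.72 ± 0.08, SE, limma adjusted p = 0.00129). CEMIP2, its membrane-bound relative, read 7.68, 7.79 and 7.76 on untreated and 8.05, 8.16 and 8.14 on treated arrays, and rose by 0.37 ± 0.07 (SE, limma adjusted p = 0.0188). HPSE, heparanase, which cuts heparan sulfate chains, read 6.74, 6.79 and 6.86 on untreated and 6.22, 6.08 and 6.22 on treated arrays. It was 1.54-fold lower (-0.62 ± 0.08, SE, limma adjusted p = 0.00234). None of these 3 genes overlapped between groups. CEMIP and HPSE passed without any single array, whereas CEMIP2 passed only without treated array 1 (adjusted p between 0.0557 and 0.0716 without each of the other 5 in turn). HPSE was not called when probe sets with a shared-sequence suffix were left out (-0.38, adjusted p = 0.0703), and CEMIP had no value there. Averaged over its 2 probe sets, CEMIP differed by 0.45 (limma adjusted p = 0.0316), so the size of its change depends on the probe set. Differences of the other 15 ran from -0.30 for IDS to 0.33 for IDUA, the lysosomal enzymes that remove sulfate from and cleave iduronic acid (adjusted p = 0.0698 and 0.226).

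**Figure D4:**
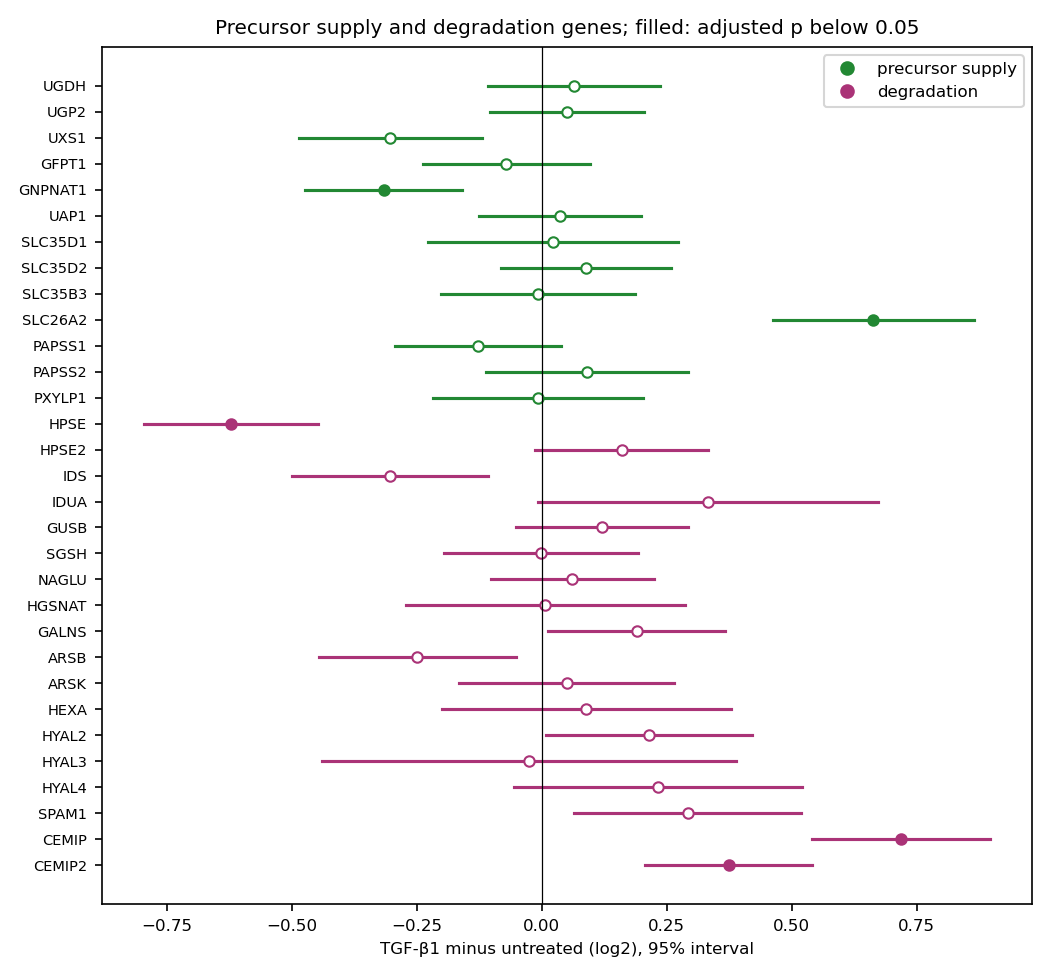
Difference between treated and untreated cells (log2) with 95% interval for 13 precursor supply genes and 18 degradation genes; filled points passed at an adjusted p below 0.05. SLC26A2, CEMIP and CEMIP2 lie above 0, and GNPNAT1 and HPSE below.

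By branch, calls on the heparan side were NDST1, SULF2 and HS3ST3A1 higher and HS3ST1 and the degrading HPSE lower. On the chondroitin and dermatan side CSGALNACT2, DSE, CHST11 and CHST3 were higher and CHST7 lower. For hyaluronan the synthase HAS3 was lower and CEMIP and CEMIP2 were higher. Whether branches differed from each other was not tested. Among the 12 called synthesis and sulfation genes, XYLT1, NDST1, CHST11, SULF2 and HS3ST1 passed in every setting that gave them a value, and so did SLC26A2 and CEMIP of the other lists.

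**Figure D5:**
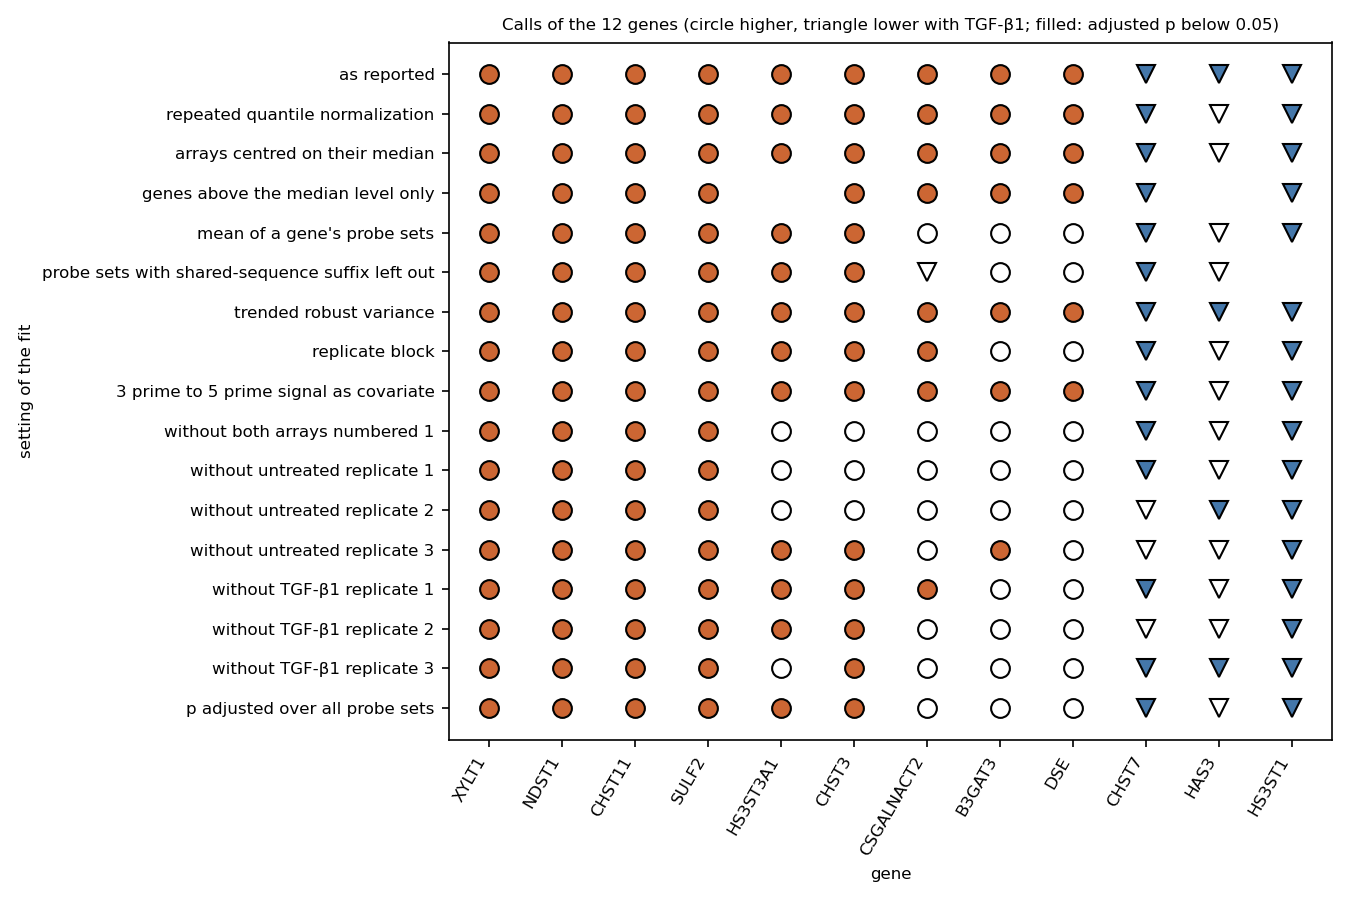
Calls of the 12 genes (columns) under each setting of the fit (rows); circles mark higher and triangles lower expression with TGF-β1, filled where the adjusted p was below 0.05, and a gap marks a gene without a value in that setting. Columns of XYLT1, NDST1, CHST11, SULF2 and HS3ST1 are filled throughout, whereas DSE, B3GAT3, CSGALNACT2 and HAS3 are open in many settings.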

How the data were processed

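Expression was measured on 6 Affymetrix arrays with 54675 probe sets each. The deposited values are log2 expression estimates made with Affymetrix Expression Console and RMA, per the submitters' processing notes; the sources used here name no version of either. No detection calls were used. RMA subtracts background, equalises arrays and combines probes. Of the probe sets, 62 were controls and 41091 carried 1 gene symbol in the platform annotation, updated through a RefSeq table (0 symbols changed). Each of 19775 genes was represented by its brightest probe set, by mean of the 6 arrays. The 3 treated were tested against the 3 untreated arrays with limma 3.58.1 (R 4.3.3; lmFit, then eBayes) and no covariate. P-values were adjusted over all genes (Benjamini-Hochberg), with a call below 0.05. A positive difference means higher with TGF-β1. The fit was tested on simulated data. The members and lists were chosen with earlier results of these data known. Every member is named, with array values for members called or above the median level, and so are called genes of the supply and degradation lists; other members of these lists were named after their values were seen. List genes without a probe set of a single name were not analysed here. Alternatives changed normalisation, level filter, probe-set choice, variance model, block, covariate and arrays used. In fits without arrays the brightest probe set was chosen anew from the arrays left. The number of arrays limits precision.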

Additional observations from a re-analysis of the deposited data

How the results depend on the processing

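Of the 12 calls, 5 passed without any single array. In all of the 16 alternatives that gave them a value 11 genes kept their direction, the exception being CSGALNACT2. Direction is a weak check here, since several alternatives change only the p-value. The groups of all 12 genes did not overlap, so leaving out arrays could turn no sign on the same probe set. Genes called among the 55 numbered 6 to 9 (10.9% to 16.4%) when single arrays were left out, with 4 to 7 rises and 1 to 3 falls. In these fits 3.87% to 6.67% of all genes were called. Without both arrays numbered 1 there were 6 (10.9%, against 3.18% of all genes), of which 4 rose. With a trended robust variance there were 17 (30.9%, against 13.3%), of which 12 rose and 5 fell. Among genes above the median level 15 of 30 were called (50%), against 25.8% of all 9887 such genes. All genes called numbered 766 to 1319 of 19775 without single arrays, 628 without both arrays numbered 1 and 2629 with a trended robust variance. They numbered 2553 of 9887 among genes above the median level and 1004 of 16788 without suffixed probe sets. When adjusted over all probe sets, an alternative added after seeing the data, 966 were called. Supply genes called fell to 1 with a replicate block, without both arrays numbered 1, adjusted over all probe sets and whichever single array was left out, and rose to 3 among genes above the median level, with the mean of probe sets, with a trended robust variance and with the 3' to 5' covariate. Degradation genes called were 2 to 3 without single arrays, 1 without suffixed probe sets and 5 with the 3' to 5' covariate. The cause was not tested, except that fits without arrays have fewer samples. With the replicate number as a block 9 of the 12 genes passed and 6.47% of all genes were called. The labels do not say that same-numbered arrays belong together, so the number was not used for pairing in the fit reported above. Deviations of same-numbered arrays correlated at 0.18, 0.039 and 0.079, and both arrays numbered 1 had the highest 3' to 5' ratios. Whether same-numbered arrays share a batch was not tested. The sign of an uncalled difference near 0 turned for 20 other genes. Without suffixed probe sets it turned to -0.015 for CSGALNACT2 and -0.069 for DSEL. Without both arrays numbered 1 it turned to -0.033 for CHPF, -0.015 for CHST1, -0.0024 for CHST4, -0.10 for GLCE, -0.056 for HS6ST3, 0.087 for NDST3 and 0.0020 for XYLT2. With the mean of all probe sets it turned to -0.050 for CHST1, -0.025 for CHST15, -0.018 for CHST5, 0.041 for CHST9, -0.023 for HS6ST1, -0.023 for HS6ST3 and -0.026 for SULF1. Without single arrays the differences ran from -0.043 to 0.10 for CHPF, -0.0032 to 0.13 for CHST1, -0.0012 to 0.094 for CHST12, -0.053 to 0.060 for CHST13, -0.013 to 0.065 for CHST14, -0.030 to 0.092 for CHST8, -0.11 to 0.041 for CHST9, -0.22 to 0.033 for CHSY3, -0.049 to 0.16 for EXTL1, -0.013 to 0.18 for EXTL3, -0.052 to 0.12 for GLCE, -0.00034 to 0.12 for HS6ST1, -0.035 to 0.15 for HS6ST3 and -0.080 to 0.064 for NDST3. Of the 55 genes 25, HS3ST3A1 and HAS3 among them, have no value among genes above the median level, and 9, HS3ST1 among them, none without suffixed probe sets. Arrays give no depth, and dim signals limit HAS3, HS3ST3A1, untreated XYLT1 and treated HS3ST1.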
